A study of Mus musculus with 2 samples.

Results

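Respiratory chain and ATP synthase genes were described by the peaks listed for them in a chromatin immunoprecipitation (ChIP) with an antibody against Usp16, an enzyme that removes ubiquitin from histone H2A. The members are the protein-coding genes of the RefSeq annotation of GRCm38 (mm10) whose symbol starts with Nduf, Uqcr, Atp5 or Cox4 to Cox8, or is Sdha, Sdhb, Sdhc or Sdhd. On the assembled nuclear chromosomes these were 96 of 21887 coding genes. The term gene-end peak is used here for a listed peak that shares at least 1 bp with the stretch from 1 kb before to 1 kb after an annotated end of a gene. The symbols fixed the members, and no measured value enters this rule, though it was chosen with earlier results of these data known.

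The study made 1 library with the anti-Usp16 antibody and 1 with IgG, a nonspecific antibody, both from bone marrow cells positive for the stem and progenitor surface proteins c-Kit and Sca-1. All cells came from mice with the genotype Mx1 Cre:Usp16loxp/loxp. Mx1-Cre is a recombinase driven by an interferon-inducible promoter, and the labels state neither whether it had been induced nor how many mice were used or their age. Whether the cells still held Usp16 is thus not given. The file analysed was 1 list of 5079 peaks called with MACS, of which 5046 lay on the assembled chromosomes. Each peak has a position and a score given by the authors' peak caller, with a lowest value of 50 and a list median of 69.9. The score ranks peaks within this list and is no measure of expression, so the labelled cell type could not be checked against its markers. There are no replicates and so no test across samples. Read depth is not known, and IgG signal was not analysed here. A gene without a listed peak may carry a weaker one.

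The respiratory chain passes electrons from NADH and succinate to oxygen through complexes I to IV of the inner mitochondrial membrane, and ATP synthase, or complex V, uses the proton gradient that this builds. Complex I oxidises NADH, complex II succinate, complex III passes electrons on to cytochrome c, and complex IV, cytochrome c oxidase, reduces oxygen. A few subunits are encoded in mitochondrial DNA and the rest by nuclear genes, most of which the choice by symbol takes in, spread over nearly all chromosomes. Blood stem cells at rest are known for low mitochondrial activity, which rises as they differentiate.

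Promoters from RefSeq (GRCm38.p6) are shown for members that carry the contrasts described below. The table of promoters gives 250 bases before and 50 bases after each listed transcription start, with its strand, and it matched 78 of the 96 members. First come the 5 members with the highest-scoring peaks among those matched. They encode a core subunit of complex I (Ndufs7), a subunit of the ATP synthase stator stalk (Atp5pb), the hinge protein of complex III (Uqcrh), an accessory subunit of complex I (Ndufb5) and a complex I assembly factor (Ndufaf1). All 300 bases of each lay inside its peak. Capitals mark the letters of 5 motifs searched on both strands. They are CCGGAAG (ETS family factors), GCGCANGCG (NRF1), AAGATGGCG (YY1), CACGTG (E-box) and GGGCGG (GC box).
Ndufs7, chr10:80249199-80249498, plus strand: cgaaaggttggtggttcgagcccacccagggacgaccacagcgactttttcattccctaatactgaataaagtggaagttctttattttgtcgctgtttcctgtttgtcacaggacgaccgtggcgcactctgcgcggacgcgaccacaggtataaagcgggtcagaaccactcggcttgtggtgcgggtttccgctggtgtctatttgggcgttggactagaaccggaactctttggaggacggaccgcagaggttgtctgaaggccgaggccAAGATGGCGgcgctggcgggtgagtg
Atp5pb, chr3:105959214-105959513, minus strand: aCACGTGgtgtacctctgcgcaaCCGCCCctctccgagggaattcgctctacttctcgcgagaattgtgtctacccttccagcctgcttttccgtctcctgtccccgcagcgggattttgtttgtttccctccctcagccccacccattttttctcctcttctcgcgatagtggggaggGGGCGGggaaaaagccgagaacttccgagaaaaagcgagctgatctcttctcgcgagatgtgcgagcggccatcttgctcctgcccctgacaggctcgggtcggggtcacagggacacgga
Uqcrh, chr4:116075021-116075320, minus strand: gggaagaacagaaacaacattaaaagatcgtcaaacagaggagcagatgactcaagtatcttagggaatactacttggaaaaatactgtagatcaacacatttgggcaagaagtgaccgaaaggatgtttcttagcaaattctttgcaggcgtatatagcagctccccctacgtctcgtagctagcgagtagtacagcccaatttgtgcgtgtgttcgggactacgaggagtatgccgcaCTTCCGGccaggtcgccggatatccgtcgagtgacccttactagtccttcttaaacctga
Ndufb5, chr3:32736813-32737112, plus strand: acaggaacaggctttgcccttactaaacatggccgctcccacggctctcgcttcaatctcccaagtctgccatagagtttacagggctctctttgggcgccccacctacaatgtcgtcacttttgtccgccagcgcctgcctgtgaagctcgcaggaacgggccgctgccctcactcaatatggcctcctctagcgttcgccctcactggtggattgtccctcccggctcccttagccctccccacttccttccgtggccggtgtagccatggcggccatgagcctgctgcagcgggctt
Ndufaf1, chr2:119662785-119663084, minus strand: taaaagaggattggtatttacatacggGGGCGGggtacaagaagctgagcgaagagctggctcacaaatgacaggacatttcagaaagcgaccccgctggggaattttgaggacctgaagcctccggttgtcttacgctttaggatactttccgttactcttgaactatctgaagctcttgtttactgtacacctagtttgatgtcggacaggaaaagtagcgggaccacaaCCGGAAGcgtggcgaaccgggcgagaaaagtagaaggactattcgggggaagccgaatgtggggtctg

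The 3 genes of the ATP synthase c-ring come next, because Atp5g2 and Atp5g3 carried a gene-end peak and Atp5g1 did not. They encode the same ring-forming protein with different import signals. The promoters of Atp5g2 and Atp5g3 lay wholly inside their peaks. Capitals have the same meaning. In Atp5g2 the NRF1 letters match on both strands at positions 1 base apart, and the run in capitals joins them.
Atp5g2, chr15:102670998-102671297, minus strand: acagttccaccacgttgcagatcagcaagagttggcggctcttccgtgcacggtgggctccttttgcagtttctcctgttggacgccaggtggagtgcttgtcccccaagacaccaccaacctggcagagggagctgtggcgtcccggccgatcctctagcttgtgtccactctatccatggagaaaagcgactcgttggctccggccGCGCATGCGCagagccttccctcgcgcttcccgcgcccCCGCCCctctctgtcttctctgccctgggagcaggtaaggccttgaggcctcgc
Atp5g3, chr2:73911277-73911576, minus strand: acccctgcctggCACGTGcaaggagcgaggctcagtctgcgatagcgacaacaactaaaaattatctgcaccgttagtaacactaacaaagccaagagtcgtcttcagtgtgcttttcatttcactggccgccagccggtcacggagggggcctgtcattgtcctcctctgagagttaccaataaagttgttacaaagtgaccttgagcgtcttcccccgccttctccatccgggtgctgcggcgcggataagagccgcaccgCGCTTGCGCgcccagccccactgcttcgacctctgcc
Atp5g1, chr11:96075582-96075881, minus strand: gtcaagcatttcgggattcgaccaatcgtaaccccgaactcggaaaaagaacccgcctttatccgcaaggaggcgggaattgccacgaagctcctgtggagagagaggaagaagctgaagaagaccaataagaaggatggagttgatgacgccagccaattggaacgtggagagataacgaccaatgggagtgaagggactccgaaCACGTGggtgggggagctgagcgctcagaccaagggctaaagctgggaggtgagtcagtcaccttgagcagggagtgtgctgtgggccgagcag

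The last pair encodes the heart and muscle isoform (Cox7a1) and the widely expressed isoform (Cox7a2) of a complex IV subunit. The listed promoter of Cox7a2 lay wholly inside a peak, and that of Cox7a1 lay in none.
Cox7a1, chr7:30183921-30184220, plus strand: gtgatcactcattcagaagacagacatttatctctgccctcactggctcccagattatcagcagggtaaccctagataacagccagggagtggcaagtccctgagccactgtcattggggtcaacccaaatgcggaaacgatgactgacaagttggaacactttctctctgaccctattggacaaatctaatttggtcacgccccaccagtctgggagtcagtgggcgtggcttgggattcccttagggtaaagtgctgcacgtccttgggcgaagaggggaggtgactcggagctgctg
Cox7a2, chr9:79759804-79760103, minus strand: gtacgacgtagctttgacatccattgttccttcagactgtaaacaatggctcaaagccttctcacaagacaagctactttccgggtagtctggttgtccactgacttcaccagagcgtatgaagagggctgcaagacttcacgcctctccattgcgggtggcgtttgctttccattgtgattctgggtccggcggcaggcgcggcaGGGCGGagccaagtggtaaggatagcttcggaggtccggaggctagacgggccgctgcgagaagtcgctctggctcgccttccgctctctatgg

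A gene-end peak was listed for 34 of the 96 members, or 35.4% (exact 95% interval 25.9 to 45.8%), against 13.9% of all coding genes (3033 of 21887, interval 13.4 to 14.3%). The members' share was 2.56 times that of all coding genes. Intervals of shares are Clopper-Pearson intervals, and all intervals cover counting error only. The 34 genes were reached by 34 distinct peaks, and no member carried more than 1. The median score of these peaks was 88.6, with quartiles of 67.0 and 131 and a range of 51.2 to 290.5. All 2466 peaks at coding gene ends had a median score of 74.4 and quartiles of 59.9 and 106. The 95% interval of the members' median, taken from the ranked scores, was 73.2 to 116 and holds that value. Of the members' peaks, 24 (70.6%, interval 52.5 to 84.9%) scored at or above the list median, where 56.8% of all peaks at coding gene ends did. The part of the list above its upper quartile of 96.9 held 16 of them (47.1%, interval 29.8 to 64.9%), where it held 30.1% of all peaks at coding gene ends. Both values for all such peaks lie inside the members' intervals, near the lower bounds. With 34 peaks, higher scores at the members are neither shown nor excluded. Widths were close, with medians of 820 bp for the members' peaks and 788.5 bp for all peaks at coding gene ends.

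**Figure D1:**
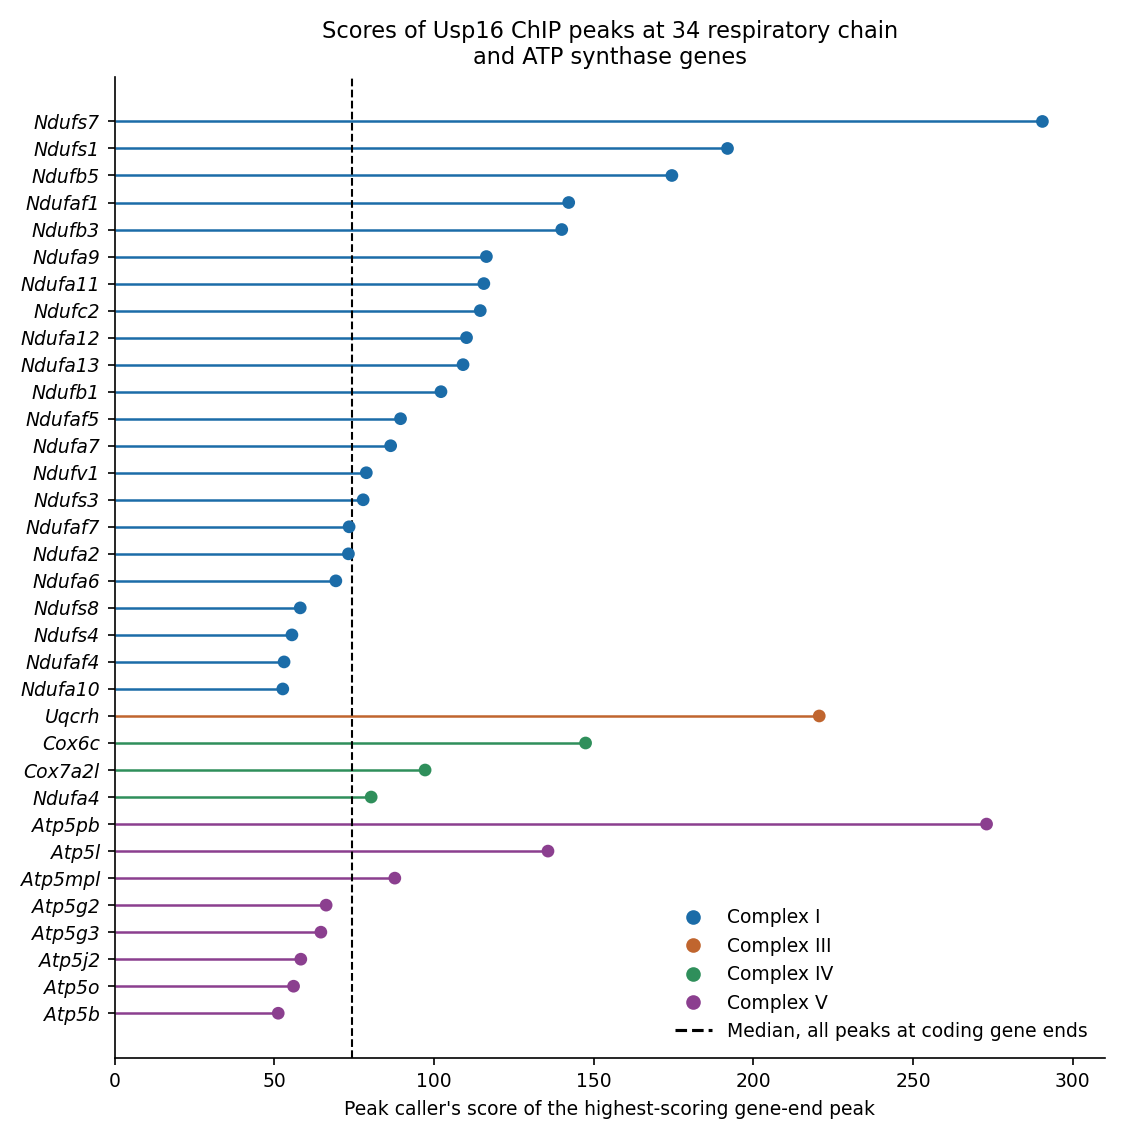
Score of the gene-end peak of each of the 34 members that carried one (x axis, peak caller's score with no unit), 1 gene per row and coloured by complex; the dashed line is the median of 74.4 over all peaks at coding gene ends. Scores run from 51.2 at Atp5b to 290.5 at Ndufs7, and complex II has no entry.

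By complex, the counts were 22 of 47 genes for complex I (46.8%, interval 32.1 to 61.9%), 0 of 4 for complex II (upper bound 60.2%), 1 of 8 for complex III (12.5%, 0.316 to 52.7%), 3 of 20 for complex IV (15.0%, 3.21 to 37.9%) and 8 of 17 for complex V (47.1%, 23.0 to 72.2%). The intervals of complexes I and V lay above the 13.9% of all coding genes, and those of complexes II, III and IV held it. With peaks at or above the median score alone, complex V stood at 3 of 17 (17.6%, 3.80 to 43.4%), an interval that holds the 8.03% of all coding genes in that setting. Intervals of all 5 complexes overlapped, and the difference between complexes was not tested. The groups are unlike in make-up. The 47 genes of complex I include 8 assembly factors, and the 20 of complex IV include 7 tissue-specific isoforms. Assembly factors of the other complexes fall outside the choice by symbol. Peak scores had a median of 95.9 in complex I and of 65.4 in complex V, with wide overlap, from 52.7 to 290.5 in the first and from 51.2 to 273 in the second.

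**Figure D2:**
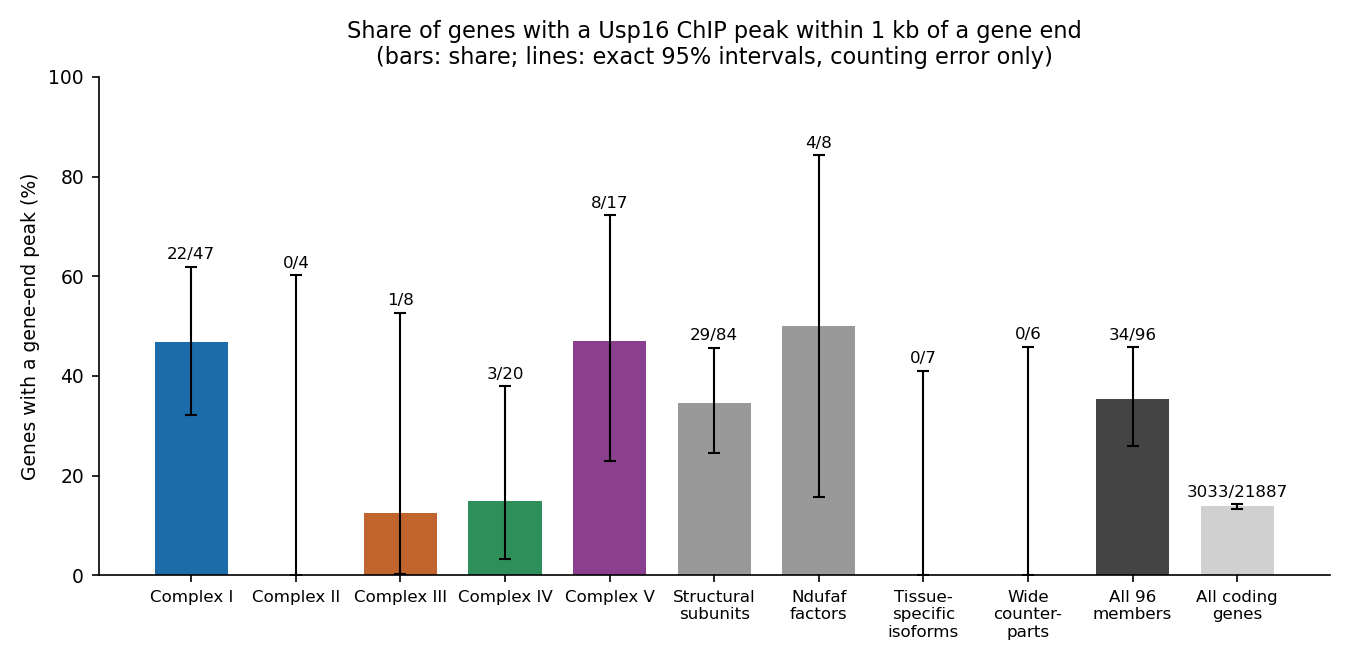
Percentage of genes with a gene-end peak (y axis) in each complex, in structural subunits and Ndufaf assembly factors, in tissue-specific isoforms and their widely expressed counterparts, in all 96 members and in all coding genes; bars are shares, lines exact 95% intervals, and counts give genes with a peak over genes in the group. Complexes I (46.8%) and V (47.1%) have the highest bars among the complexes, and complex II has none.

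Complex I is built of a peripheral arm that takes electrons from NADH and a membrane arm that pumps protons. Its nuclear core subunits, which hold the redox centres, carried peaks at 5 of 7 genes (71.4%, interval 29.0 to 96.3%). The highest score was 290.5 at Ndufs7, whose product carries the last iron-sulfur cluster before ubiquinone (peak at chr10:80248668-80249707, 1040 bp wide). That peak stood above 98.1% of the list. Ndufs1, the largest core subunit and also an iron-sulfur protein, had a score of 192 (chr1:63176254-63177527). Lower scores of 78.8, 77.8 and 58.1 were listed at Ndufv1, which binds NADH and flavin, and at Ndufs3 and Ndufs8. No gene-end peak was listed for Ndufv2, which holds an iron-sulfur cluster beside Ndufv1.

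The Ndufs7 peak stood out by what else it covered. It held the tRNA genes n-TFgaa3 (chr10:80248964-80249036) and n-TNgtt7 (chr10:80249159-80249232), and its midpoint fell inside n-TNgtt7, at -261.5 bp from the listed start of Ndufs7, where negative values are upstream. Genes of tRNAs are read by RNA polymerase III and those of the respiratory chain by polymerase II, and their parts in this peak cannot be told apart.

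Among the accessory subunits of complex I, which surround the core and stabilise it, 13 of 30 genes carried a peak (43.3%, interval 25.5 to 62.6%). The highest scores were 174 at Ndufb5 (chr3:32736453-32737363) and 140.0 at Ndufb3 (chr1:58586197-58586823). Scores of 102 to 116 followed at Ndufa9, Ndufa11, Ndufc2, Ndufa12, Ndufa13, also known as GRIM-19, and Ndufb1. Ndufa7 had a score of 86.5, Ndufa2 one of 73.2 and Ndufa6 one of 69.3, close to the middle of the list. Ndufs4, a subunit whose loss causes a model of Leigh syndrome in mice, had 55.5, and Ndufa10 had 52.7, near the lowest score listed. The 17 accessory genes without a gene-end peak were Ndufa1, Ndufa3, Ndufa5, Ndufa8, Ndufab1, Ndufb2, Ndufb4, Ndufb6, Ndufb7, Ndufb8, Ndufb9, Ndufb10, Ndufb11, Ndufc1, Ndufs5, Ndufs6 and Ndufv3. The subunit-like copies Ndufb4b and Ndufb4c had none either.

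Structural subunits of all complexes carried peaks at 29 of 84 genes (34.5%, interval 24.5 to 45.7%), and the Ndufaf genes, which encode assembly factors of complex I and are absent from the finished enzyme, at 4 of 8 (50%, 15.7 to 84.3%). Within complex I alone the subunits stood at 18 of 37 (48.6%, 31.9 to 65.6%). With 8 assembly factor genes the interval is too wide to place them above or below the subunits. Ndufaf1, which helps to assemble the membrane arm, had a score of 142 (chr2:119662545-119663156). Ndufaf5 had 89.5 and Ndufaf7 had 73.4, and the product of Ndufaf5 is known to modify the core subunit Ndufs7. Ndufaf4 had 53.1, and its peak ended 809 bp short of the gene. Ndufaf2, Ndufaf3, Ndufaf6 and Ndufaf8 carried none.

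Complex II, the only one that is also an enzyme of the citric acid cycle, had no gene-end peak at Sdha, Sdhb, Sdhc or Sdhd. The nearest peak midpoints lay 179, 161, 10.7 and 13.5 kb from an end of these genes. Complex III had 1, at Uqcrh, with a score of 221 that stood above 96.7% of the list (chr4:116074806-116075671). None was listed for Uqcrfs1, the Rieske iron-sulfur protein, for the core-named proteins Uqcrc1 and Uqcrc2, or for Uqcrb, Uqcrq, Uqcr10 and Uqcr11.

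Complex IV carried peaks at Cox6c, with a score of 147 (chr15:35937890-35938544), at Cox7a2l, with 97.2, and at Ndufa4, with 80.4. Cox7a2l encodes a factor that joins complexes III and IV into supercomplexes, and the product of Ndufa4, named for complex I, is counted here as a subunit of complex IV, where it is now placed. The other 17 genes had no gene-end peak. They were Cox4i1, Cox4i2, Cox5a, Cox5b, Cox6a1, Cox6a2, Cox6b1, Cox6b2, Cox7a1, Cox7a2, Cox7b, Cox7b2, Cox7c, Cox8a, Cox8b, Cox8c and Ndufa4l2, the last a copy related to Ndufa4.

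Isoforms of complex IV gave no contrast by this rule. The 7 isoforms found mainly in 1 kind of tissue, such as Cox6a2, Cox7a1 and Cox8b in heart and muscle, Cox6b2, Cox7b2 and Cox8c in testis and Cox4i2 in lung, had 0 gene-end peaks (upper bound 41.0%). Their 6 widely expressed counterparts, Cox4i1, Cox6a1, Cox6b1, Cox7a2, Cox7b and Cox8a, also had 0 (upper bound 45.9%). Both intervals hold the 13.9% of all coding genes. Among pairs with listed starts, 1 differed when these were used in place of the outer ends of the gene. Cox4i1, Cox4i2, Cox6a2 and Cox8c have no listed start, so their pairs could not be compared in this way. The annotation of Cox7a2 reaches well beyond its listed start, and a peak of score 118 (chr9:79759536-79760167) had its midpoint 1.5 bp downstream of that start, although 4.61 kb from the nearer end of the gene. The peak also reached the pseudogene Gm51685. The nearest peak to Cox7a1 lay 46.2 kb away.

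ATP synthase consists of the catalytic F1 head, the rotating c-ring, a stator stalk and small membrane proteins. Peaks were listed for 1 of 5 F1 genes, 2 of 3 c-ring genes, 2 of 4 stalk genes and 3 of 5 genes of membrane subunits. Intervals were 0.505 to 71.6% for F1, 9.43 to 99.2% for the c-ring and 6.76 to 93.2% for the stalk, which hold the 13.9% of all coding genes, and 14.7 to 94.7% for the membrane subunits. All 4 overlap, so the parts of the enzyme could not be told apart. The highest score was 273 at Atp5pb, subunit b of the stalk (chr3:105958957-105959963), above 97.9% of the list. Atp5o, the stalk protein that confers oligomycin sensitivity, had 56.0. Of the membrane subunits, Atp5l had 136, Atp5mpl 87.8 and Atp5j2 58.3. The c-ring genes Atp5g2 and Atp5g3 had 66.2 and 64.6, and the Atp5g2 peak was the widest of all members at 1898 bp and held the microRNA gene Mir688. Atp5b, the catalytic beta subunit, had 51.2, the lowest score among members. None was listed for Atp5a1, Atp5c1, Atp5d, Atp5e, Atp5g1, Atp5h, Atp5j, Atp5k and Atp5md.

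All members' peaks whose gene has a listed strand lay at the start of transcription. Of the 78 members with a strand, 30 (38.5%) had a peak within 1 kb of the annotated start and 0 had one within 1 kb of the end of transcription. Among 17492 coding genes with a strand, 2348 (13.4%) had one at the start and 288 (1.65%) at the end. Of the coding genes with a peak at either, 92.8% had it at the start, so the location at starts is that of coding genes in general. Ndufs1, Cox6c, Atp5mpl and Ndufa2 have no listed strand, and each of their peaks covered the end with the higher coordinate.

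The midpoints of the 30 peaks lay at a median of -24.75 bp from the nearest listed start, with quartiles of -165 and 1.62 bp. In all 2273 coding genes with such a peak, counted up to 2.5 kb from a listed start, the median was -63 bp. Of the members' peaks, 27 (90.0%) had the midpoint within 300 bp of a listed start, where 79.0% of those at all coding genes did. A listed start was covered by 29 of the 30 peaks (96.7%), against 89.1% over all coding genes. The exception was Ndufaf4, with its midpoint at -1050 bp and inside the long noncoding RNA gene Gm46848. Ndufa13 had the midpoint farthest downstream, at 518 bp, and Atp5g2 the farthest upstream after Ndufaf4, at -548.5 bp.

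**Figure D3:**
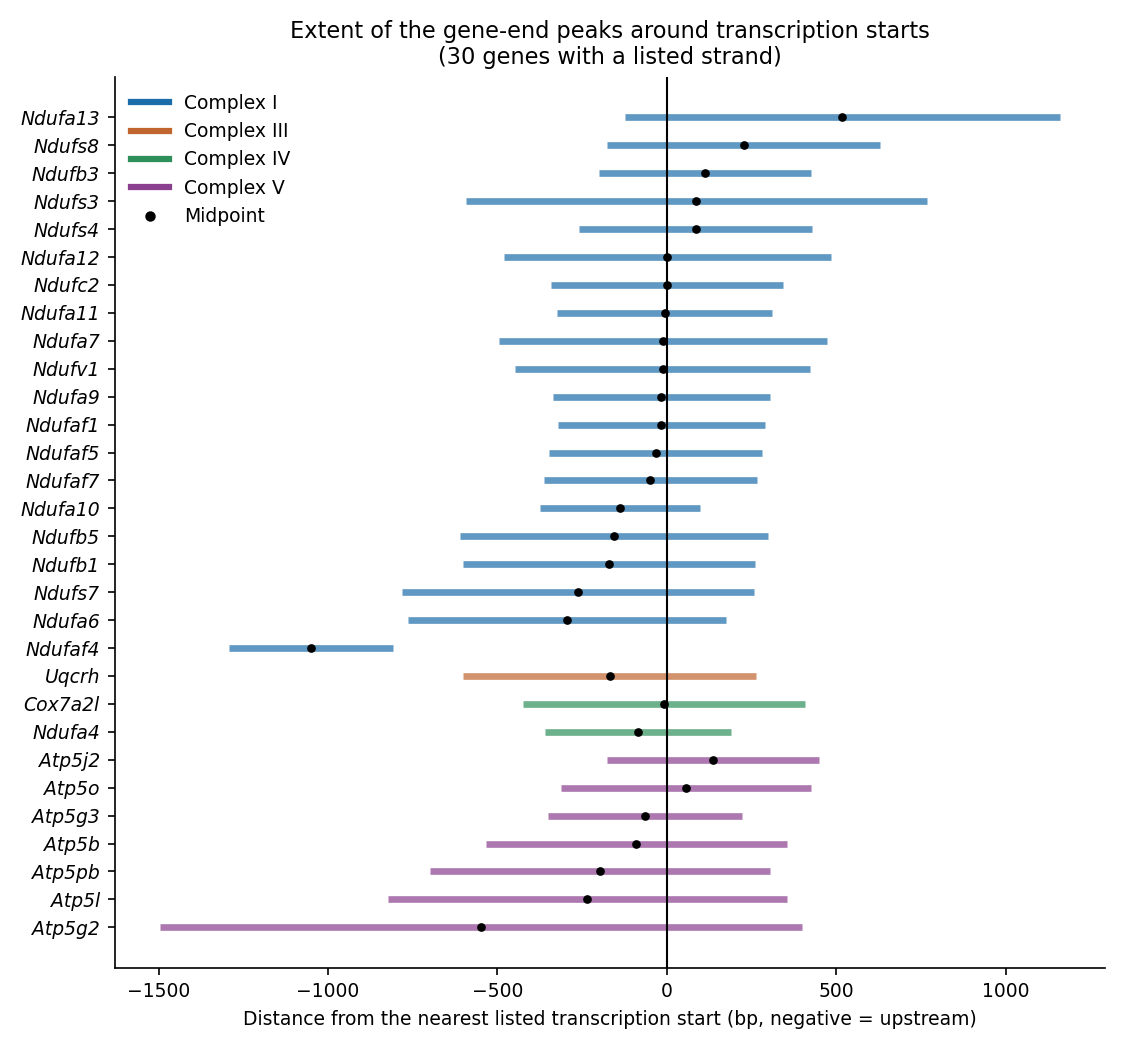
Extent of the gene-end peak of each of the 30 members with a listed strand (coloured line, by complex) and its midpoint (black point), as distance in bp from the nearest listed transcription start, with upstream to the left. Peaks of 29 genes span the start at 0, and that of Ndufaf4 lies wholly upstream.

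Of the calls made at 1 kb few lay close to the distance limit, while a wider window added more. Peaks of 31 members reached the annotated end itself, and those of Ndufa13, Atp5g3 and Ndufaf4 ended 414, 788 and 809 bp from it. Just outside the limit were Ndufb10, with the nearest peak edge 1558 bp from its end, and Atp5h, with 1584 bp. Both of these peaks lay beyond the end of transcription. The peak near Ndufb10 reached the snoRNA genes Snora64 and Snora78, and that near Atp5h reached the mitochondrial ribosomal gene Mrpl58 and tRNA genes. With a window of 5 kb, 42 of 96 members had a peak (43.8%), against 18.3% of all coding genes. Complex IV then stood at 6 of 20 (interval 11.9 to 54.3%). The widely expressed isoforms of complex IV stood at 2 of 6 (4.33 to 77.7%) and the tissue-specific ones at 0 of 7. The intervals of these groups hold the 18.3%.

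Of the 62 members without a gene-end peak, 10 had a peak inside the gene or a midpoint within 10 kb of an end. Genes with a peak inside them included Cox7a2, Atp5d, Ndufa4l2 and Cox7b2, whose peak lay 30.6 kb from an end. Atp5d, the delta subunit of F1, held a peak of score 59.6 that covered its listed starts and also reached Cbarp. Outside the gene lay the nearest midpoints of Ndufb10 (2.08 kb), Atp5h (2.56 kb), Ndufb8 (3.57 kb), Cox4i1 (4.36 kb) and Atp5c1 (7.37 kb). The nearest peak to the 62 genes had its midpoint at a median distance of 53.8 kb. Neither the count of 10 nor this distance is set beside all coding genes, so both describe these members only. Counting any listed start in place of the outer ends, an alternative added once the values had been seen, Atp5d and Cox7a2 were added and 32 of 78 members carried a peak (41.0%, interval 30 to 52.7%), against 14.2% of coding genes with a listed start.

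Many members stand next to another gene, and 15 of the 34 peaks (44.1%) also reached an end of another coding gene, where 39.8% of coding genes with a gene-end peak shared theirs. The strands of both genes were listed for 12 of these 15 pairs. In 11 of the 12 the genes lay on opposite strands and the peak reached within 1 kb of the annotated start of both. Whether the peak covered both starts was not counted. They paired Atp5pb with Wdr77, Uqcrh with Lrrc41, Ndufa4 with Phf14, Ndufs3 with Kbtbd4, Ndufa7 with the ribosomal protein gene Rps28 and Ndufb5 with the mitochondrial ribosomal protein gene Mrpl47. The same held for Ndufa11 with Vmac, Ndufa13 with Tssk6, Ndufaf5 with Esf1, Ndufb1 with Cpsf2 and Ndufb3 with Fam126b. Ndufs8 was the exception, lying downstream of the end of Aldh3b1 on the same strand. Ndufs1 with the translation elongation factor gene Eef1b2, Ndufaf7 with Cebpz and Ndufa2 with Ik could not be placed by strand. Which gene of such a pair a peak belongs to cannot be told apart. The share of opposite starts among shared peaks of all coding genes is not given, so the 11 of 12 describes these pairs only.

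The annotation alone set members apart from other genes in this respect. Another coding gene's end lay within 1 kb of the start in 31 of 78 members (39.7%) and in 15.3% of coding genes with a strand. In genes with such a neighbour, 13 of 31 members carried a gene-end peak (41.9%, interval 24.5 to 60.9%), against 32.5% of all coding genes (867 of 2668), a value inside the members' interval. In genes with no such neighbour, 17 of 47 members did (36.2%, 22.7 to 51.5%), against 11.2% of all coding genes (1662 of 14824). This split and the one by base composition were added after the values had been seen.

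**Figure D4:**
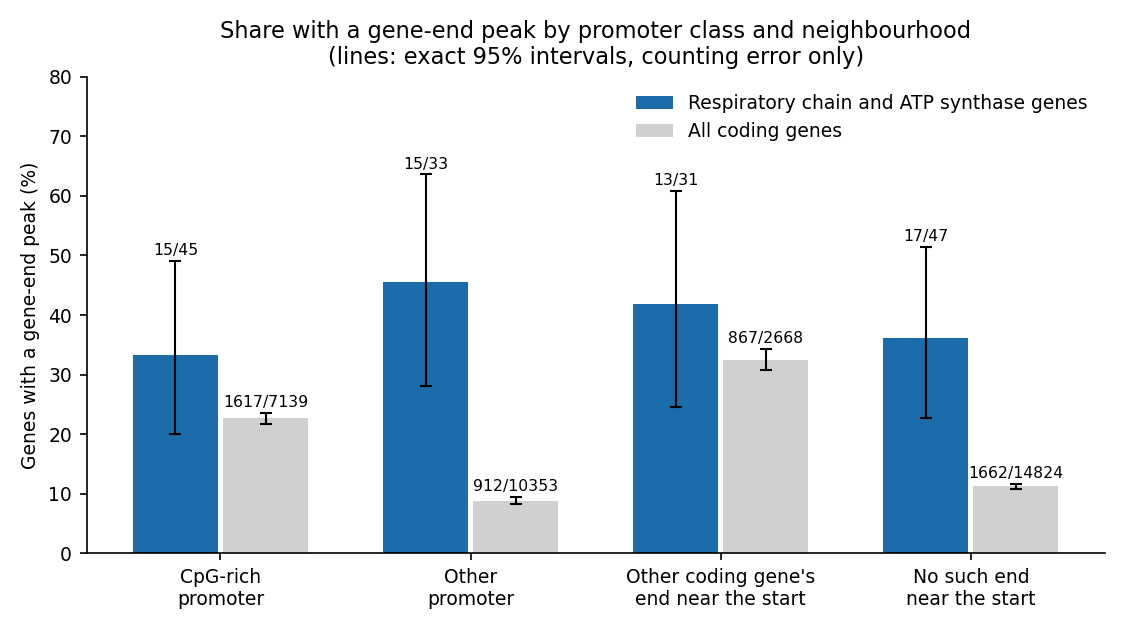
Percentage of genes with a gene-end peak (y axis) among respiratory chain and ATP synthase genes (left bar of each pair) and all coding genes (right bar), split by promoter class and by whether an end of another coding gene lies within 1 kb of the start; lines are exact 95% intervals and counts give genes with a peak over genes in the group. The bars differ least where another gene is near (41.9% and 32.5%) and most for promoters that are not CpG-rich (45.5% and 8.81%).

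Members also differed from coding genes at large in the base composition of their promoters. A promoter was called CpG-rich when GC exceeded 55% and the ratio of observed to expected CpG exceeded 0.65 in the 300 bases. At least 1 listed promoter met both limits in 45 of 78 members (57.7%) and 40.8% of coding genes. The values of GC and CpG ratio below are each the highest over a gene's listed promoters, which need not be the same one. Among members, 15 of 30 with a gene-end peak (50%) and 30 of 48 without (62.5%) had such a promoter. In coding genes with a gene-end peak 63.9% did. By CpG ratio alone the order among members was different, with medians of 0.864 with a peak and 0.801 without, and 0.821 in coding genes with a peak. Median GC was 56.7% in members with a peak and 59.5% in those without, close to the limit of 55%. The class thus depends on the GC limit, and the difference among members was not tested. Within CpG-rich promoters, 15 of 45 members carried a peak (33.3%, interval 20 to 49.0%), against 22.7% of all coding genes (1617 of 7139), which lies inside that interval. With a CpG-rich promoter and no other coding gene's end within 1 kb of the start, 8 of 23 members did (34.8%, 16.4 to 57.3%). All coding genes of that kind stood at 18.8% (1027 of 5477), also inside the members' interval. Among promoters that are not CpG-rich 15 of 33 members did (45.5%, 28.1 to 63.6%), against 8.81% (912 of 10353). Some members in this class missed the GC limit alone, such as Uqcrh and Ndufaf1, with CpG ratios of 0.92 and 0.94. Examples with low GC content and a peak were Ndufs4 (45.3%), Uqcrh (46.7%), Ndufc2 (47.3%) and Atp5l (49.0%). Over all coding genes the share with a peak also differed with neighbours and base composition, and the part of these in the members' share was not tested.

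The motif letters were compared in the listed promoters of members with a peak, members without and all coding genes. A gene was counted when any of its listed promoters held the letters, so genes with more listed starts had more chances. NRF1 is a factor known for binding promoters of respiratory genes, and its letters were found in 8 of 30 members with a peak (26.7%, interval 12.3 to 45.9%), in 14 of 48 without (29.2%, 17.0 to 44.1%) and in 9.63% of 17492 coding genes. ETS letters, read by factors such as GABP, were in 5 of 30 (16.7%), 14 of 48 (29.2%) and 12.9%. YY1 letters were in 4 of 30 (13.3%), 4 of 48 (8.33%) and 2.14%. GC boxes were in 12 of 30 (40.0%, 22.7 to 59.4%), 23 of 48 (47.9%) and 49.2%. Members with a peak can also be set beside the 2529 coding genes with a gene-end peak and a listed strand. Those held NRF1 letters in 15.3%, YY1 letters in 4.67% and ETS letters in 26.5%, each inside the interval of members with a peak (3.76 to 30.7% for YY1 and 5.64 to 34.7% for ETS). GC boxes were in 65.4% of them, above the interval of members with a peak.

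The E-box letters CACGTG, read by factors such as MYC and USF, showed the widest relative gap between members. They were in 5 of 30 members with a peak (16.7%, interval 5.64 to 34.7%), namely Ndufa7, Ndufv1, Atp5g3, Atp5l and Atp5pb, and in 1 of 48 without (2.08%, 0.0527 to 11.1%), namely Atp5g1. All coding genes stood at 8.91% and those with a gene-end peak at 12.5%. The members' intervals overlap, and a match of letters shows no binding. Among the sequences printed above, Ndufs7 holds YY1 letters 25 bases into the transcript, Uqcrh and Ndufaf1 hold ETS letters that begin 10 and 18 bases before the start, and Ndufb5 and Cox7a1 hold none of the 5 motifs.

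**Figure D5:**
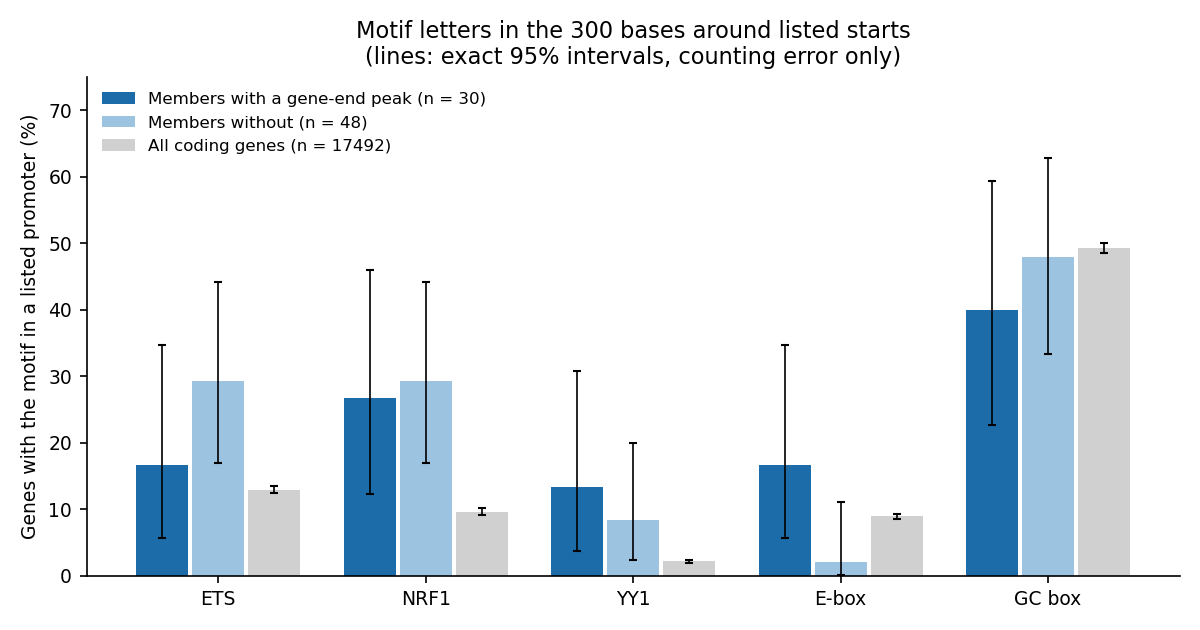
Percentage of genes whose listed promoter holds the letters of each motif (y axis), for members with a gene-end peak, members without and all coding genes, with exact 95% intervals as lines. E-box letters are at 16.7% in members with a peak and 2.08% in those without, with overlapping intervals, while NRF1 letters are at 26.7% and 29.2%.

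Other genes of the pathway, taken from lists of known factors, were counted in the same way. Of 41 further assembly factors of the 5 complexes, 8 did (19.5%, interval 8.82 to 34.9%), with a median score of 67.6. They were Cox11, a copper chaperone of complex IV (146), Bcs1l, which inserts the Rieske protein into complex III (122), the complex II factor Sdhaf3 (102), Coa5 (67.9), the haem enzyme Cox15 (67.4), Pet100 (64.1), the complex I factor Timmdc1 (52.6) and Cox16 (50.7). No gene-end peak was listed for the cytochrome c genes Cycs and Cyct, or for Cyc1, which encodes cytochrome c1, a catalytic subunit of complex III that the choice by symbol leaves out of the members and of the counts for complex III and structural subunits. Of 13 genes of the citric acid cycle 4 did (30.8%, 9.09 to 61.4%), among them Mdh2 at 218, Suclg1 at 87.6 and Sucla2 at 50.1. Of 13 regulators of mitochondrial genes 3 did (23.1%, 5.04 to 53.8%), Gabpb2, a subunit of GABP, at 165, the mitochondrial transcription factor gene Tfb2m at 81.2 and the coactivator gene Pprc1 at 50.3. The intervals of these lists hold the 13.9% of all coding genes. Those of the citric acid cycle genes and the regulators also hold the members' 35.4%, and that of the further assembly factors ends just below it. The interval of the cytochrome c genes with Cyc1 (upper bound 70.8%) holds both values. Most of these lists are thus too short to be told apart from either the members or all coding genes.

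Of 19 pseudogene copies of member genes on the assembled chromosomes, 0 carried a gene-end peak (upper bound 17.6%). The share over all pseudogenes is not given, so this count is not set against a background. How closely the pseudogene copies match the member genes was not measured. How reads that match both were placed is not stated in the labels. Whether such reads bear on the absence of a peak at a member or at a copy was not tested. No peak was listed on mitochondrial DNA, whose 13 protein-coding genes are not among the members.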

How the data were processed

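The data are 1 list of ChIP-seq peaks for the anti-Usp16 library of a study with 2 libraries. Peaks were called by the authors with MACS run in Galaxy, per the file headers. Bowtie, Picard and mm10 are named without versions in the submitters' processing notes, and the MACS settings and the use of the IgG library are not stated there. Each deposited peak carries a score that MACS gave it, which was compared only within this list. Read depth is unknown.

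Peak starts were made 1-based. Gene ends came from RefSeq GRCm38.p6, and strands, starts and promoter bases from its promoter table. Genes were counted with Python 3.11.15, pandas 2.3.3 and scipy 1.17.1, and the overlap calls were tested on simulated peaks. With 1 library per antibody no test across samples was made. Shares have exact Clopper-Pearson 95% intervals, and the median score has a 95% interval taken from the ranked scores. Members and lists were chosen with earlier results of these data known. All members with a gene-end peak are named, and members without one are named by complex, with distances for those with a peak inside or within 10 kb. A few genes are counted but not reported here by name. Alternatives were windows of 500 bp and 5 kb, the higher-scoring peaks, stricter overlaps, starts only, removal of shared peaks and merging within 1 kb.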

Additional observations from a re-analysis of the deposited data

How the results depend on the processing

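The share of respiratory chain and ATP synthase genes with a gene-end peak stood above that of all coding genes under 9 other settings, at 2.35 to 3.11 times it. With peaks at or above the median score it was 25% (all coding genes 8.03%), with complex V at 17.6%, no longer set apart from all coding genes, and structural subunits at 23.8%. Without peaks that reach another coding gene it was 19.8% (all coding genes 8.42%), with complex I at 21.3%, complex III at 0% and structural subunits at 19%. The other 101 values of shares and medians stayed within the intervals of the main values. A window of 500 bp dropped Atp5g3 and Ndufaf4, and rules that asked for the midpoint or 50% of the peak in the window also dropped Ndufa13. Genes added by a window of 5 kb included Atp5d, Atp5h, Cox4i1, Cox7a2, Ndufa4l2, Ndufb10 and Ndufb8. Over 8 further settings added after seeing the data the ratio to coding genes of the same kind ran from 1.29, in genes with a neighbour at the start, to 5.16, in promoters that are not CpG-rich. No paired analysis was possible because the list comes from 1 library. Small groups such as complexes II and III limit what the shares can show.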
